A study of Homo sapiens with 6 samples.

Results

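WNT5A, WNT5B, the Frizzled receptor genes FZD2, FZD6, FZD7 and FZD8, the ROR receptor genes ROR1 and ROR2, and the antagonist genes DKK1 and DKK3 were examined in SUM-159 cells, a triple-negative breast cancer (TNBC) line. These 10 genes were selected on their differences between the SH3GL2 and empty vector arrays of this same series, so the differences of the members are given as a description, with no p of their own. By gene symbol they held 17 of the 22215 probe sets compared. A probe set is a group of short probes on the array that reads 1 transcript region. Of the 17 probe sets, 16 carry 1 symbol and 1 is shared by FZD8 and MIR4683, and what it reads cannot be assigned to FZD8 alone.

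The cells had been stably transfected with an empty vector or with an SH3GL2 insert, both in pcDNA 3.1, and no untransfected cells were analysed here. SH3GL2 encodes endophilin A1, an endocytic protein, and the study asked which genes lie downstream of it. RNA was hybridized to Affymetrix human gene expression arrays, 3 for each group, and neither the labels nor the study's methods say whether the 3 were separate cultures. The methods speak of stable clones kept under G418, without saying how many made up each line. Differences are therefore between these cell preparations, and their errors cover the spread between these arrays, which may be technical. The number of arrays limits the precision.

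Values are log2 signals, on which a difference of -1 is a signal 2-fold lower. As a guide to the signal expected without a transcript, 86 probe sets for 52 genes of other organs were centred on 4.92 (median), with 95% of them under 7.02, called the reference level here. Of all probe sets, 49.8% had a mean above 7.02, so a signal below it does not show that a transcript is absent. The only probe set of SH3GL2 read 3.22 ± 0.04 with empty vector and 3.26 ± 0.09 with SH3GL2 (SD, n = 3), below that median in both groups, and could not check the labels. Of 5 genes that mark SUM-159 as a mesenchymal-type line (VIM, CD44, AXL, ZEB1 and EGFR), all 5 exceeded the reference level. The receptor genes ESR1 and PGR did not. Of 8 luminal and receptor markers, 3 exceeded it (ERBB2, GATA3 and KRT18) and none was called. The log2 of the summed signal of the 8 ran from 12.15 to 12.27 with empty vector and from 12.19 to 12.45 with SH3GL2. KRT18, the brightest, weighs most in this sum (log2 fold change 0.25), whereas GATA3 had -0.34 to -0.25 on its 3 probe sets. VIM, the brightest of the 5 markers, weighs most in theirs. The log2 of the summed signal of the 5 markers ran from 15.11 to 15.13 with empty vector and from 14.96 to 14.97 with SH3GL2. Among them, ZEB1 was lower in limma on all its probe sets. AXL was lower on its brighter probe set, and its dimmer was not called (adjusted p = 0.0683 from limma). Of 7 markers of blood and endothelial cells, 1 exceeded the reference level (HBB), PTPRC, PECAM1 and CDH5 were below it, and the log2 of their summed signal ran from 8.88 to 8.91 and from 8.74 to 8.80. The part of these shifts in the results below was not tested.

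Wnt proteins are secreted lipid-modified ligands that bind Frizzled receptors together with a coreceptor. With LRP5 or LRP6 they stabilize beta-catenin, which then works with TCF and LEF factors on target genes. WNT5A acts mainly through ROR1, ROR2 or RYK on a branch without beta-catenin, which steers cell polarity and movement through small GTPases and calcium. DKK1 blocks LRP5 and LRP6, whereas DKK3 is a related secreted protein that binds these coreceptors poorly. WNT5A, FZD7 and ROR1 are known for their expression in basal-like and mesenchymal breast cancer cells.

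Among the members, WNT5A and FZD7 fell on every probe set they have, to between 44.3% and 61.3% of the empty vector signal. DKK1 had a similar mean difference, but its SH3GL2 arrays were widely spread and the groups overlapped. The other members, WNT5B, FZD2, FZD6, ROR1, ROR2, DKK3 and the probe set shared by FZD8, lay between -0.20 and 0.16 in log2 fold change. By the moderated test of limma over all probe sets, at an adjusted p under 0.05, 4 of the 17 member probe sets (23.5%) were called lower, beside 2.18% of all probe sets. None was called higher, with 0 also at an unadjusted p under 0.05 and 0 by one-way analysis of variance, beside 1.99% of all probe sets. As the members were chosen on this contrast, nothing is read from these counts. The median log2 fold change was -0.10 over the 17 probe sets and 0.01 over all probe sets. Over the 12 probe sets of members other than WNT5A, FZD7 and DKK1 it was -0.017. Nothing is read from these medians either.

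**Figure D1:**
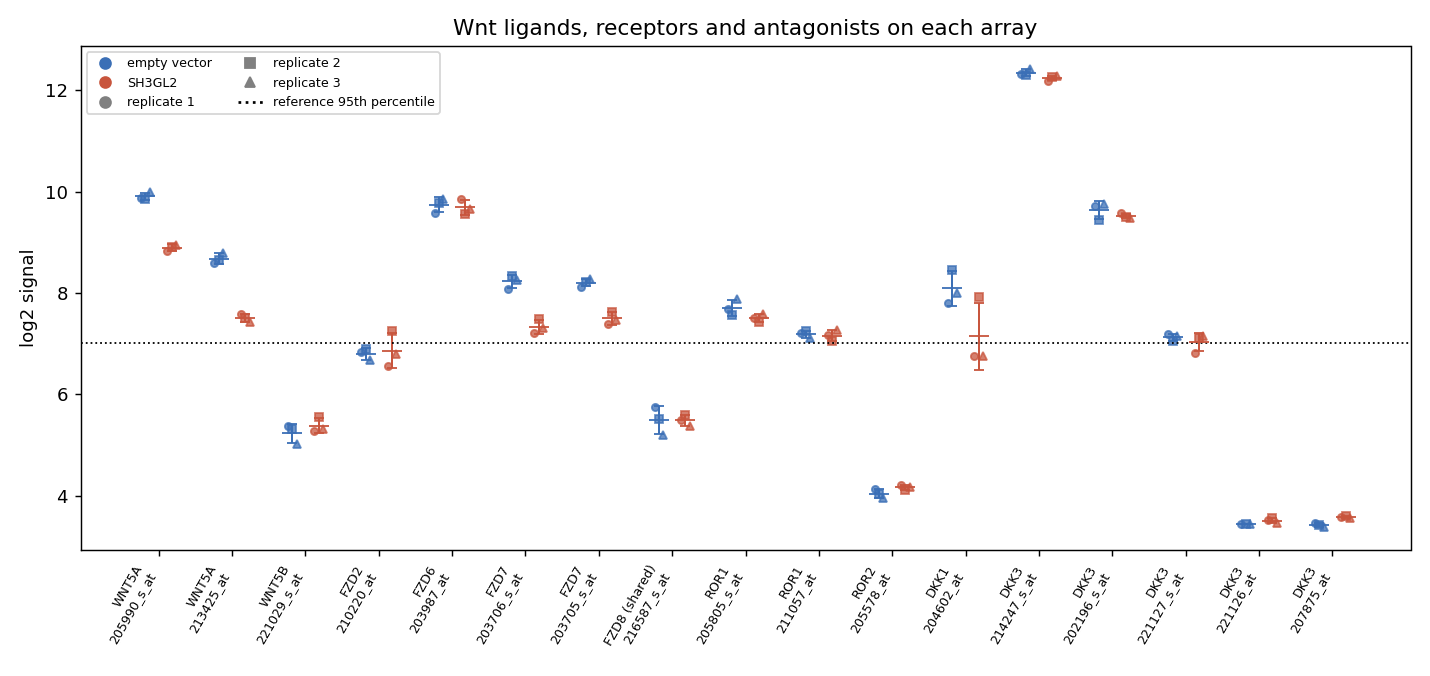
Log2 signal (vertical axis) of the 17 member probe sets on each array, with empty vector in blue and SH3GL2 in red, a marker shape for each replicate number, and bars for the mean and SD (n = 3). The dotted line is the reference level of 7.02. The red points of WNT5A and FZD7 lie below all blue points, and those of DKK1 run from 6.75 to 7.91.

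WNT5A was measured by 2 probe sets. On the brighter, the empty vector arrays read 9.87, 9.86 and 9.99 and the SH3GL2 arrays 8.82, 8.90 and 8.95. On the dimmer, they read 8.59, 8.65 and 8.79 against 7.58, 7.50 and 7.43. All SH3GL2 arrays were lower than all empty vector arrays on both, with gaps of 0.91 and 1.01 between the nearest arrays. The brighter fell from 9.91 ± 0.07 to 8.89 ± 0.07 (SD, n = 3). Its log2 fold change was -1.02 (standard error 0.07, 95% interval -1.17 to -0.87), to 49.4% of the empty vector signal. The dimmer fell from 8.68 ± 0.10 to 7.50 ± 0.08. Its log2 fold change was -1.17 (standard error 0.08, 95% interval -1.35 to -0.99), to 44.3%. Within an array, the dimmer minus the brighter probe set was -1.28 to -1.20 with empty vector and -1.52 to -1.24 with SH3GL2, and these ranges overlap. Ordered by log2 fold change from the most negative, the probe sets stood 30th and 20th of 22215. WNT5A was chosen on this contrast, so nothing is read from these places. Whether fewer cells made the transcript or each cell held less of it cannot be told apart in bulk RNA, here and for every decrease below.

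WNT5B encodes the ligand closest to WNT5A in sequence. Its probe set read 5.37, 5.31 and 5.02 with empty vector and 5.27, 5.55 and 5.31 with SH3GL2. The groups overlapped, and the log2 fold change was 0.14 (95% interval -0.11 to 0.40). Both group means, 5.23 and 5.38, lay below the reference level, within the range of signals expected without a transcript, so little is read from the difference.

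The sequence before the transcription start is shown for WNT5A, which has 2 start sites in RefSeq (GRCh38.p14), and for DKK1, a known target of beta-catenin that itself blocks the pathway. The RefSeq promoter entries used here covered 6 of the 10 members, with 8 entries in all. The lack of an entry here for the other members does not show that RefSeq has none. Each run holds the 250 bases before the start, 5′ to 3′ on the gene's strand. Capitals mark the TCF/LEF core (CTTTGA or CTTTGT), the E-box bound by ZEB and SNAIL factors (CAGGTG) and the TATA box (TATAAA), each searched on both strands. None of the matches overlap in these runs. The WNT5A entries lie on the minus strand at chr3:55487307-55487556 and chr3:55481399-55481648, and that of DKK1 on the plus strand at chr10:52314031-52314280.
WNT5A, first entry: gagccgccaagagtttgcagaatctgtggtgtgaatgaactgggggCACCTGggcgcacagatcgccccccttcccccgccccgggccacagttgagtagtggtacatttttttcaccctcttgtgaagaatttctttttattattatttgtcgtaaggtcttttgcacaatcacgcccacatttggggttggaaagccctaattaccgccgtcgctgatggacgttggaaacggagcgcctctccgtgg
WNT5A, second entry: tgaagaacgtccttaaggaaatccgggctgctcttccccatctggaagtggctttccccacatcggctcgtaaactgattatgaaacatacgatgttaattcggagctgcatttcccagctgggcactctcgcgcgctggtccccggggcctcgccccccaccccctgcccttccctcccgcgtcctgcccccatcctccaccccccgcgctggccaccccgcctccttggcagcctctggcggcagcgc
DKK1: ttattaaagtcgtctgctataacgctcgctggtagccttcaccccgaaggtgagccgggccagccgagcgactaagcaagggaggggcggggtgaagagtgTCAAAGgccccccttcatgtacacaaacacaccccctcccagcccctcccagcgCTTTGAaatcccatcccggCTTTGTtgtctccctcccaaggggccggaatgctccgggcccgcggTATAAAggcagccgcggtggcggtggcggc

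The DKK1 run holds 3 TCF/LEF cores, 1 of them on the opposite strand, and a TATA box. Of the 35116 runs of this length before the RefSeq promoters used here, 22.8% hold at least 1 of the TCF/LEF cores and 10.7% the TATA box. The first WNT5A run holds 1 E-box, on the opposite strand, as do 17.5% of all runs with an E-box on either strand, and the second run holds none of these letters. Among the other members that were matched, ROR2 has 1 TCF/LEF core in this window. FZD8 and the second entry of WNT5B have a TATA box each, that of WNT5B on the opposite strand. GC content was 52.8% and 64.4% for WNT5A and 62.8% for DKK1, beside a median of 58.0% over all runs. Such matches describe the letters only, and the arrays do not measure what binds there.

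FZD7, a Frizzled receptor expressed in basal-like breast cancer and in stem cells, was the receptor among the members that fell. One of its probe sets read 8.08, 8.34 and 8.26 with empty vector and 7.21, 7.48 and 7.30 with SH3GL2. The other read 8.12, 8.22 and 8.27 against 7.39, 7.63 and 7.47. Neither showed overlap between the groups, with gaps of 0.60 and 0.49. The log2 fold changes were -0.90 (standard error 0.10, 95% interval -1.11 to -0.69) and -0.71 (standard error 0.09, 95% interval -0.90 to -0.52), or 53.7% and 61.3% of the empty vector signal. All group means were above the reference level, the lowest at 7.33 in the SH3GL2 cells. By one-way analysis of variance neither FZD7 probe set was called.

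FZD6, a Frizzled receptor with a role in planar polarity, gave a signal well above the reference level in both groups. Its probe set read 9.58, 9.78 and 9.86 with empty vector and 9.85, 9.56 and 9.65 with SH3GL2. The groups overlapped, with a log2 fold change of -0.05 (95% interval -0.25 to 0.14). FZD2, the receptor most related to FZD7 among the members, read 6.83, 6.90 and 6.67 against 6.55, 7.24 and 6.79. Its groups overlapped as well, with a log2 fold change of 0.06 (95% interval -0.26 to 0.38), and neither group mean exceeded the reference level. The probe set shared by FZD8 and MIR4683 had means of 5.49 and 5.48, below the reference level, and a log2 fold change of 0.00 (95% interval -0.28 to 0.28).

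ROR1 and ROR2 are receptor tyrosine kinase-like proteins that bind WNT5A. ROR1 exceeded the reference level on both of its probe sets. On the brighter it read 7.68, 7.56 and 7.87 with empty vector and 7.51, 7.42 and 7.59 with SH3GL2. The highest SH3GL2 array lay 0.03 above the lowest empty vector array, and the log2 fold change was -0.20 (95% interval -0.40 to 0.01). On the dimmer the log2 fold change was -0.03 (95% interval -0.22 to 0.16) and the groups overlapped. ROR2 had means of 4.04 ± 0.09 and 4.16 ± 0.06 (SD, n = 3), below the reference median in both groups, so that no decrease could be read from it.

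**Figure D2:**
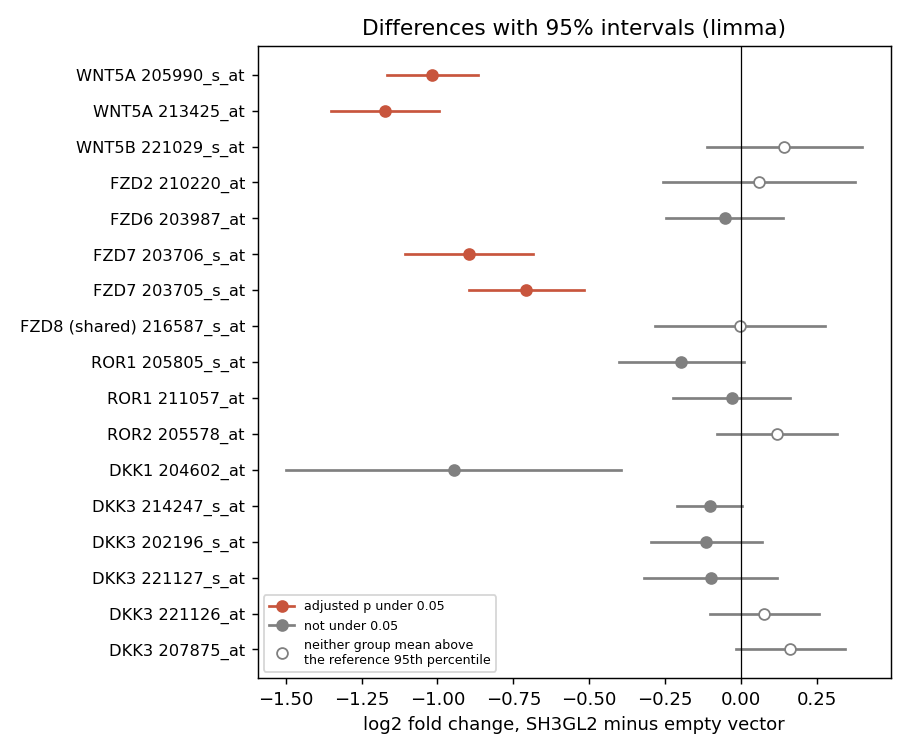
Log2 fold change of each member probe set (horizontal axis, SH3GL2 minus empty vector) with its 95% interval from limma, red where the adjusted p was under 0.05 and open where neither group mean exceeded the reference level. The 4 red intervals of WNT5A and FZD7 lie between -1.35 and -0.52, and the interval of DKK1, from -1.50 to -0.39, is the widest.

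DKK1, the secreted antagonist of the LRP coreceptors, read 7.80, 8.46 and 8.00 with empty vector and 6.75, 7.91 and 6.76 with SH3GL2. SH3GL2 replicates 1 and 3 were below every empty vector array, whereas SH3GL2 replicate 2 was above empty vector replicate 1. The means were 8.09 ± 0.34 and 7.14 ± 0.67 (SD, n = 3), a log2 fold change of -0.95 (standard error 0.25, 95% interval -1.50 to -0.39), and the probe set was not called. SH3GL2 replicates 1 and 3 lay below the reference level, within the range of signals expected without a transcript, and above the reference median of 4.92. Every array read DKK1 above that median, so flooring signals there could not change the log2 fold change of -0.95. Its pooled SD within the groups, 0.53, was the third largest of all 22215 probe sets. Without SH3GL2 replicate 2 the log2 fold change was -1.33 and DKK1 was called lower. Leaving out any other array gave -1.09 to -0.75, and DKK1 was not called.

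DKK3, often reported as silenced in tumors, was measured by 5 probe sets. The brightest read 12.32, 12.29 and 12.42 with empty vector and 12.19, 12.26 and 12.27 with SH3GL2. These groups did not overlap, with a gap of 0.02, and the log2 fold change was -0.10 (95% interval -0.21 to 0.01). The next 2 had log2 fold changes of -0.11 (95% interval -0.29 to 0.07) and -0.10 (95% interval -0.32 to 0.12), with overlapping groups. The other 2 had means of 3.41 to 3.58, below the reference median, and log2 fold changes of 0.16 and 0.08. None of the 5 probe sets of DKK3 was called. Across the members, 5 probe sets were lower in every SH3GL2 array than in every empty vector array, beside 8.97% of all probe sets, and 2 were higher, beside 10.5%. The 2 are the dimmest of DKK3.

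**Figure D3:**
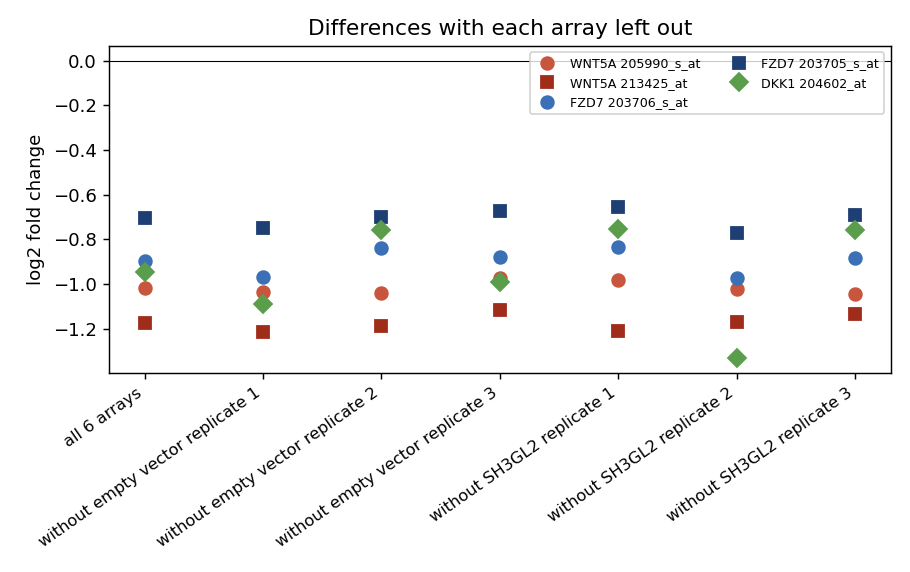
Log2 fold change (vertical axis) of the WNT5A, FZD7 and DKK1 probe sets with all 6 arrays and with each array left out. The WNT5A values lie between -1.22 and -0.98 and the FZD7 values between -0.97 and -0.65, while DKK1 runs from -1.33 to -0.75.

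The remaining genes of the pathway came from 7 lists, on which 98 genes had their own probe set. Of the 98 genes, 2 were higher, 2 were lower and 94 did not pass limma. Over all 11963 genes that the array reads alone, 2.80% had at least 1 probe set called higher and 2.86% at least 1 called lower. The median log2 fold change over the 192 probe sets of these genes was 0.01, as over all probe sets. The analysis of variance called none of the 98, with 30 at an unadjusted p under 0.05 in limma. Counted by probe set and not by gene, 3524 of all 22215 were under that threshold, so nothing is read from the 30. With signals floored at the reference median, WNT10B, LGR4 and DAAM1 lost their calls (adjusted p = 0.141, 0.171 and 0.0792 from limma) and GSK3B did not. All arrays read these 4 genes above that floor, so their log2 fold changes were the same and the fit's error and adjustment alone differed. AXIN2, a target gene of beta-catenin, had no entry of its own in the annotation used here.

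Of 12 ligand and ligand secretion genes, 3 were higher and 0 lower at an unadjusted p under 0.05 in limma. By variance analysis 0 were called. After adjustment in limma, 1 was higher and none was lower. It was WNT10B, a ligand that signals through beta-catenin. WNT10B read 7.56, 7.52 and 7.71 with empty vector and 7.97, 7.99 and 8.25 with SH3GL2, without overlap, and rose from 7.60 ± 0.10 to 8.07 ± 0.16 (SD, n = 3). The log2 fold change was 0.47 (adjusted p = 0.0127 from limma, standard error 0.10). The call was lost without SH3GL2 replicate 3 or either of empty vector replicates 1 and 2 (adjusted p = 0.0501 to 0.0828). Of the 12 genes, 4 exceeded the reference level.

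None of the 11 other receptor genes passed limma (3 higher and 0 lower at an unadjusted p under 0.05 in limma, and 0 by variance analysis), and 6 of them exceeded the reference level. The coreceptor gene LRP6 had log2 fold changes of 0.06 (95% interval -0.14 to 0.26) and 0.05 (95% interval -0.23 to 0.32), and LRP5 had 0.17 (95% interval -0.03 to 0.37), all with means below the reference level. The WNT5A receptor gene RYK gave 0.06 to 0.15 on 3 probe sets, all above the reference level, and did not pass limma (adjusted p = 0.297 to 0.766). PTK7, a polarity coreceptor, had 0.03 (95% interval -0.13 to 0.19, adjusted p = 0.918 from limma). None of the 11 other genes of the list of secreted antagonists passed (1 higher and 0 lower at an unadjusted p under 0.05 in limma, and 0 by variance analysis). The 1 gene higher before adjustment, named after its values were seen, was KREMEN2, with means of 7.42 and 7.69 and a log2 fold change of 0.27 (95% interval 0.04 to 0.50, adjusted p = 0.224 from limma). KREMEN2 encodes a transmembrane receptor for DKK proteins and no secreted protein, and it was also the only gene of the 11 above the reference level. The secreted antagonists of the list were all below it, within the range of signals expected without a transcript, so little is read from their differences.

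LGR4, a receptor for R-spondins, which raise the amount of Frizzled at the cell surface, was the gene of its list that passed, of 3 measured. It read 6.95, 7.28 and 7.34 with empty vector and 6.54, 6.74 and 6.37 with SH3GL2, and the groups did not overlap. It fell from 7.19 ± 0.21 to 6.55 ± 0.19 (SD, n = 3). The log2 fold change was -0.64 (adjusted p = 0.00914 from limma, standard error 0.12), with the SH3GL2 mean below the reference level. The call was lost without SH3GL2 replicate 3 (adjusted p = 0.0600).

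In the planar polarity and calcium branch, 1 of 25 genes was lower, none was higher and 24 did not pass. At an unadjusted p under 0.05 in limma, 3 were higher and 4 lower, with 0 by variance analysis. DAAM1, a formin that links Dishevelled to RHOA, read 6.44, 6.65 and 6.67 with empty vector and 6.09, 6.11 and 6.16 with SH3GL2. Its groups did not overlap, and the log2 fold change was -0.47 (adjusted p = 0.0139 from limma, standard error 0.10). Both of its means lay below the reference level, and the call was lost without empty vector replicate 2, SH3GL2 replicate 1 or SH3GL2 replicate 3 (adjusted p = 0.0537 to 0.0671). VANGL1, a core polarity protein, had a log2 fold change of -0.03 (95% interval -0.27 to 0.21).

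In the beta-catenin branch, 1 of 29 genes was higher, none was lower and 28 did not pass. At an unadjusted p under 0.05 in limma, 8 were higher and 4 lower, with 0 by variance analysis. GSK3B, a kinase that marks beta-catenin for destruction, read 8.86, 8.84 and 8.89 with empty vector and 9.15, 9.16 and 9.25 with SH3GL2. It rose without overlap, by a log2 fold change of 0.32 (adjusted p = 0.0149 from limma, standard error 0.07), and lost its call without SH3GL2 replicate 3 or either of empty vector replicates 1 and 2 (adjusted p = 0.0516 to 0.105). CTNNB1, encoding beta-catenin, had a log2 fold change of -0.03 (95% interval -0.13 to 0.06). None of 10 target genes of beta-catenin passed (1 higher and 3 lower at an unadjusted p under 0.05 in limma, and 0 by variance analysis). Of the 19 target genes listed outside the members, these 10 were measured and 5 exceeded the reference level. LEF1, both a factor and a target, had log2 fold changes of -0.27, -0.04 and -0.20 on 3 probe sets (adjusted p = 0.218 to 0.901 from limma), of which the last alone exceeded the reference level.

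**Figure D4:**
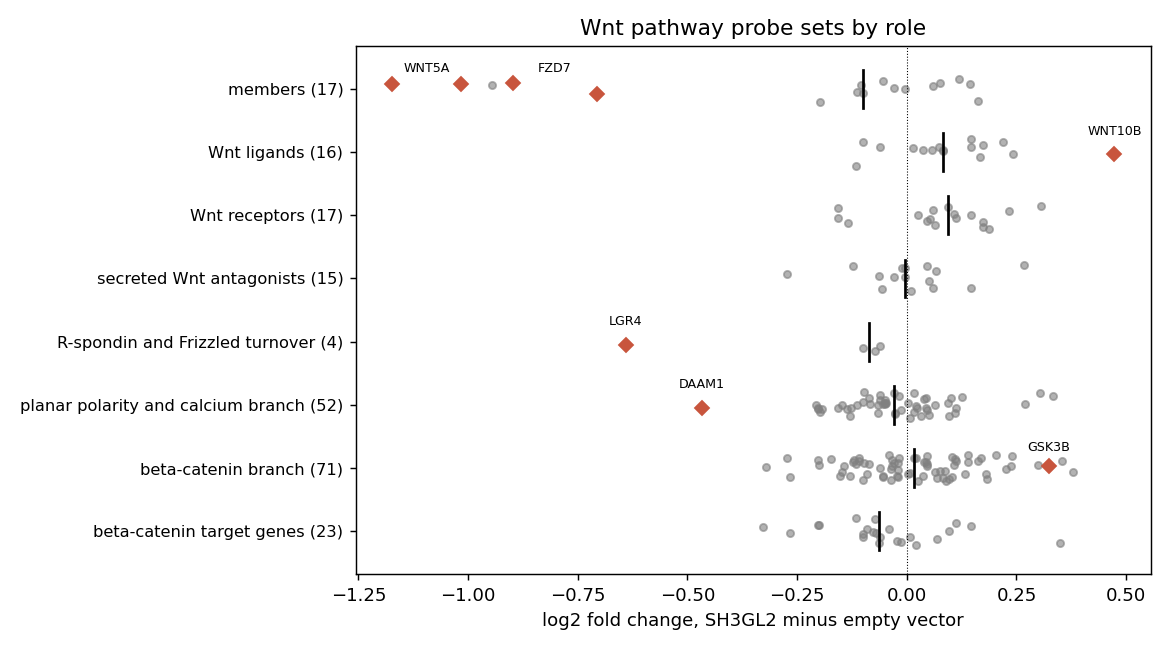
Log2 fold change (horizontal axis, SH3GL2 minus empty vector) of the member probe sets and of those of the 7 other pathway lists, with the number of probe sets in brackets. Diamonds had an adjusted p under 0.05, circles did not, and black bars are medians. Outside the members the diamonds are WNT10B, LGR4, DAAM1 and GSK3B, between -0.64 and 0.47.

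The pattern of WNT5A over the 6 arrays, the mean of its probe sets, was set against 9860 other probe sets with 1 symbol and a mean above the reference level. As a description, Pearson's r was highest for CALD1 (0.999), COL6A3, CNR1, FBXL7 and MGLL (0.997 for the last), whose log2 fold changes ran from -1.69 to -0.40. It was lowest for TSPAN7 (-0.999), CCL5, CASP1, C1S and KAZN (-0.995 for the last), with log2 fold changes of 0.53 to 2.03. FZD7 had r of 0.97 and 0.98 and DKK1 had 0.74. The arrays form 2 groups, so r here follows the difference between the groups, and 448 probe sets had r above 0.9 and 382 below -0.9.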

How the data were processed

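Total RNA of SUM-159 cells was measured on 6 arrays, 3 empty vector and 3 SH3GL2. GCOS software was used by the authors on the scans, and MAS5 is named in the submitters' processing notes with no version. The deposited values are read as log2 signals from their range (2.82 to 15.31, array medians 6.97 to 7.02). Whether the arrays were scaled to each other is not given in the sources used here. Values were used as deposited. Of 22277 probe sets, 62 controls were left out. The platform annotation gave 1 symbol to 19064, several to 1043 and none to 2108. The study states no test for the arrays. Groups were compared with limma 3.58.1 in R 4.3.3 (lmFit and eBayes, trend on intensity, two-sided test, Benjamini-Hochberg over 22215 probe sets, threshold 0.05), a fit checked on simulated data. Members and lists were chosen with earlier results of these data known. The text names all members, 8 preset pathway genes, up to 6 passing genes a list and the 5 genes most and least like WNT5A. Figures used Python 3.11.15 and matplotlib 3.10.9. With 3 arrays against 3, an exact permutation test cannot go below 0.1. Alternatives covered normalization, offset, floor, filter, variance model, replicate block, threshold and each array left out.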

Additional observations from a re-analysis of the deposited data

How the results depend on the processing

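WNT5A was called lower on both probe sets under every alternative run, with log2 fold changes of -1.05 to -0.98 and -1.22 to -1.11. FZD7 was called on both under all but the one-way analysis of variance, with -0.97 to -0.83 and -0.77 to -0.65. The member count of 4 was 2 in the analysis of variance, both WNT5A, and 4 to 5 with each array left out. DKK1 was called without SH3GL2 replicate 2, with the dimmer probe sets left out and with a replicate block. The 4 other pathway genes were 1 with signals floored at the reference median, 2 with the dimmer probe sets left out (where fewer probe sets are tested), 0 in the analysis of variance (28 at an unadjusted p under 0.05), 7 with a replicate block, 1 at an adjusted p under 0.01 and 0 to 6 with each array left out, the 0 without SH3GL2 replicate 3 (19 at an unadjusted p under 0.05) and 2 without empty vector replicate 1 or empty vector replicate 2. The 926 probe sets called on the whole array were 295 with the floor, 597 without an intensity trend, 77 in the analysis of variance, 447 at an adjusted p under 0.01, 1079 with a replicate block and 480 to 801 with each array left out (480 without SH3GL2 replicate 3, 518 without empty vector replicate 2). At an unadjusted p under 0.05, 2946 of all probe sets passed in the analysis of variance. In limma without SH3GL2 replicate 3, 2676 of all probe sets did. Where not stated, the cause was not tested. Between the groups, arrays of the same number had residual correlations of -0.01, 0.13 and 0.15, and arrays of different numbers -0.16 to 0.02. The labels do not say whether the numbers mark pairs. The main fit did not take them as pairs, and the replicate block did. Signal limits the probe sets with means below the reference level (WNT5B, FZD2, ROR2, the one shared by FZD8 and the 2 dimmest of DKK3) and those just above it in the SH3GL2 arrays (DKK1, the dimmer of ROR1 and the third of DKK3).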
